A study of Homo sapiens with 15 samples.

Results

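The genes described here encode the subunits of receptors for glutamate, GABA and glycine. They were chosen by gene symbol: the AMPA (GRIA), kainate (GRIK), delta (GRID) and NMDA (GRIN) subunits of ionotropic glutamate receptors, the metabotropic glutamate receptors (GRM), the GABA-A (GABR) and GABA-B (GABBR) subunits and the glycine receptor subunits (GLR). In all, 50 of the 17999 genes of the expression table matched, and no measured value was used to choose them. The study derived self-renewing neuromesodermal progenitors (srNMPs), which can form spinal cord neurons and skeletal muscle, from the human embryonic stem cell lines H1 and HUES9, and turned them into both kinds of cell. RNA of 15 wild-type cultures was sequenced in 9 groups. Neurons labelled ventral, neurons labelled dorsal, 7-day inductions labelled RASS and RABC (neuron progenitors by their label, with abbreviations left unexplained), and srNMPs at passage 25 (P25) and passage 8 (P8) each had 1 H1 and 1 HUES9 library. Skeletal muscle at day 50, skeletal muscle at day 40 and uninduced embryonic stem cells (ESCs) each had 1 HUES9 library and so have no replicate. Wherever a group has both lines, its H1 value stands before its HUES9 value, and the 4 srNMP values are P25 H1, P25 HUES9, P8 H1 and P8 HUES9. The labels name no separate cultures beyond the cell line, so the spread within a group is that between 2 lines, and each line is a single genotype.

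Glutamate is the main excitatory transmitter of the spinal cord, and GABA and glycine are the main inhibitory ones. Ionotropic receptors are channels built from several subunits, and the choice of subunit sets their kinetics, their ion selectivity and where they are anchored, whereas metabotropic glutamate and GABA-B receptors signal through G proteins. Many subunits are exchanged as neurons mature, so the mixture of transcripts is often read as a sign of developmental stage. In bulk RNA, fewer cells of a type and less RNA per cell cannot be told apart, and this holds for every level below.

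Levels are in FPKM (fragments scaled by transcript length and by the mapped fragments of the library), a per-length scale on which genes can be compared within a library. Changes are differences in log2(FPKM + 1) ± standard error from limma, adjusted over all 14129 genes that reached 1 FPKM in at least 1 library, and a gene is called at an adjusted p under 0.05. Summed FPKM ran from 290306 to 421109 per library, and relative depth, read from the smallest values, from 0.959 to 1.04. Pan-neuronal markers summed to 1661 and 1740 FPKM in ventral neurons and 1765 and 1392 FPKM in dorsal neurons, against 228, 415, 234 and 145 FPKM in srNMPs. Markers of dorsal spinal neurons, such as LBX1 and LMX1B, summed to 8.28 and 3.77 FPKM in ventral neurons and 334 and 252 FPKM in dorsal neurons, while those of ventral spinal neurons, such as MNX1 and CHAT, summed to 64.7 and 140.0 FPKM in ventral neurons and 1.74 and 13.3 FPKM in dorsal neurons, with 37.1 to 52.9 FPKM in srNMPs. Among the srNMP markers, TBXT had 1.87, 7.39, 2.11 and 13.4 FPKM and FGF8 71.4 to 171 FPKM in srNMPs, but CDX2 had only 0.00615 FPKM in the P8 library of H1 against 11.5 to 39.0 FPKM in the other srNMP libraries. The muscle cultures held skeletal muscle markers at 4138 FPKM (day 50) and 2542 FPKM (day 40) together with fibroblast collagens and proteoglycans at 8647 and 15250 FPKM. In the neuron cultures, cycling-cell markers summed to 51.3 and 61.2 FPKM in ventral neurons and 86.2 and 248.3 FPKM in dorsal neurons, with the highest value in the HUES9 library of dorsal neurons. The RASS libraries stood apart in another way. Over 14129 genes, subtracting H1 from HUES9 within the libraries labelled RASS gave differences that correlated negatively with those of all 5 other groups (Pearson r -0.533 to -0.167), while the 10 pairs of other groups gave 0.0691 to 0.377; genes are not independent, so no p is given. Results that rest on the RASS libraries are therefore also given with their lines exchanged or without them.

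To show what lies before the start sites of subunits that rose in both kinds of neuron, the 250 bases upstream of the annotated start are printed for the 4 members with the highest mean change among the 37 found in the RefSeq promoter table (GRCh38.p14; among those with no entry are GABRA3, GABRA5, GABRD, GRIA3, GRID1, GRIK1, GRIN1 and GRIN2C). They are GRIA2 (chr4:157219870-157220119, plus strand), GLRA2 (chrX:14529048-14529297, plus strand), GRIN2D (chr19:48393418-48393667, plus strand) and GABBR2 (chr9:98708936-98709185, minus strand), each written 5′ to 3′ in the direction of its gene. Capitals mark AGCACC and GGACAG, from the left and right parts of the RE1 element bound by the neuronal repressor REST. They also mark GGGCGG, the GC box bound by SP1, and all were sought on either strand.
GRIA2: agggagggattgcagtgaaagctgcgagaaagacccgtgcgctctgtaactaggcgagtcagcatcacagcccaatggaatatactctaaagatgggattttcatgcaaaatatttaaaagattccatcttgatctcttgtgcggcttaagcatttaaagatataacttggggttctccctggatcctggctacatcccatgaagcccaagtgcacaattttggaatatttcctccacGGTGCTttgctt
GLRA2: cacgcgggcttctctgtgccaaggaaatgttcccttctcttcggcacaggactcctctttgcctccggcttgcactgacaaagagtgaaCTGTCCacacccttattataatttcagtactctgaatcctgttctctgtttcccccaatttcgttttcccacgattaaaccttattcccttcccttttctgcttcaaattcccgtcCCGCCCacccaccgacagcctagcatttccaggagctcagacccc
GRIN2D: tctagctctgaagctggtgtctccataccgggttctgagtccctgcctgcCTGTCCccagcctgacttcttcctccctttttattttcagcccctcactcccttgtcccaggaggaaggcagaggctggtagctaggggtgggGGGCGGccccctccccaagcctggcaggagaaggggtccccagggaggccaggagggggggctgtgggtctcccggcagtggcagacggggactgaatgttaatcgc
GABBR2: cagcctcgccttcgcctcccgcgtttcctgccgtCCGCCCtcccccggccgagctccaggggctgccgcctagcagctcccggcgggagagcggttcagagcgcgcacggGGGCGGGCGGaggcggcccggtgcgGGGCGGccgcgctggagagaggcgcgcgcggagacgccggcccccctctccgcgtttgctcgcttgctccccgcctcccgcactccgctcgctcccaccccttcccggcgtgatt
AGCACC was present, on either strand, in 13.5% of the 37 member windows and 13.0% of 35116 windows of all genes, GGACAG in 29.7% and 17.2%, and GGGCGG in 54.1% and 42.6%. Both RE1 parts occurred in 5.41% of member windows and 2.54% of all windows, with no rule on their spacing. The E-box letters CAGCTG were in 8.11% and 14.0%, and CAGATG in 0 of 37 member windows and 12.2% of all. The median GC content was 63.6% in member windows and 58.0% in all. These letter matches are descriptions and not shown binding sites.

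Of the 50 members, 22 had a mean of at least 5 FPKM in some group, 17 others reached 1 FPKM in at least 1 library, and 11 stayed under 1 FPKM everywhere. Among the last 11 were the GABA-A subunits GABRA4 (highest value 0.487 FPKM), GABRA6 (0.0353), GABRD (0.148), GABRG1 (0.114) and GABRR2 (0.375), the glycine receptor subunit GLRA3 (0.822), the NMDA subunits GRIN2C (0.506) and GRIN3B (0.204) and the metabotropic receptor GRM6 (0.00498). All 11 went untested. The group with the highest mean was ventral neurons for 25 members, dorsal neurons for 12, ESCs for 5, muscle for 4, RASS for 2, RABC for 1 and srNMPs at P8 for 1. Subunits at or above 1 FPKM numbered 32 and 32 in ventral neurons, 31 and 26 in dorsal neurons, 9 and 9 in muscle at days 50 and 40, 12 and 10 in RASS, 12 and 8 in RABC, 6, 9, 6 and 5 in srNMPs and 11 in ESCs. The summed level of all 50 was 365 and 286 FPKM in ventral neurons and 376 and 210 FPKM in dorsal neurons, against 37.8, 47.1, 41.9 and 25.2 FPKM in srNMPs, and ESCs stood between at 120 FPKM.

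**Figure D1:**
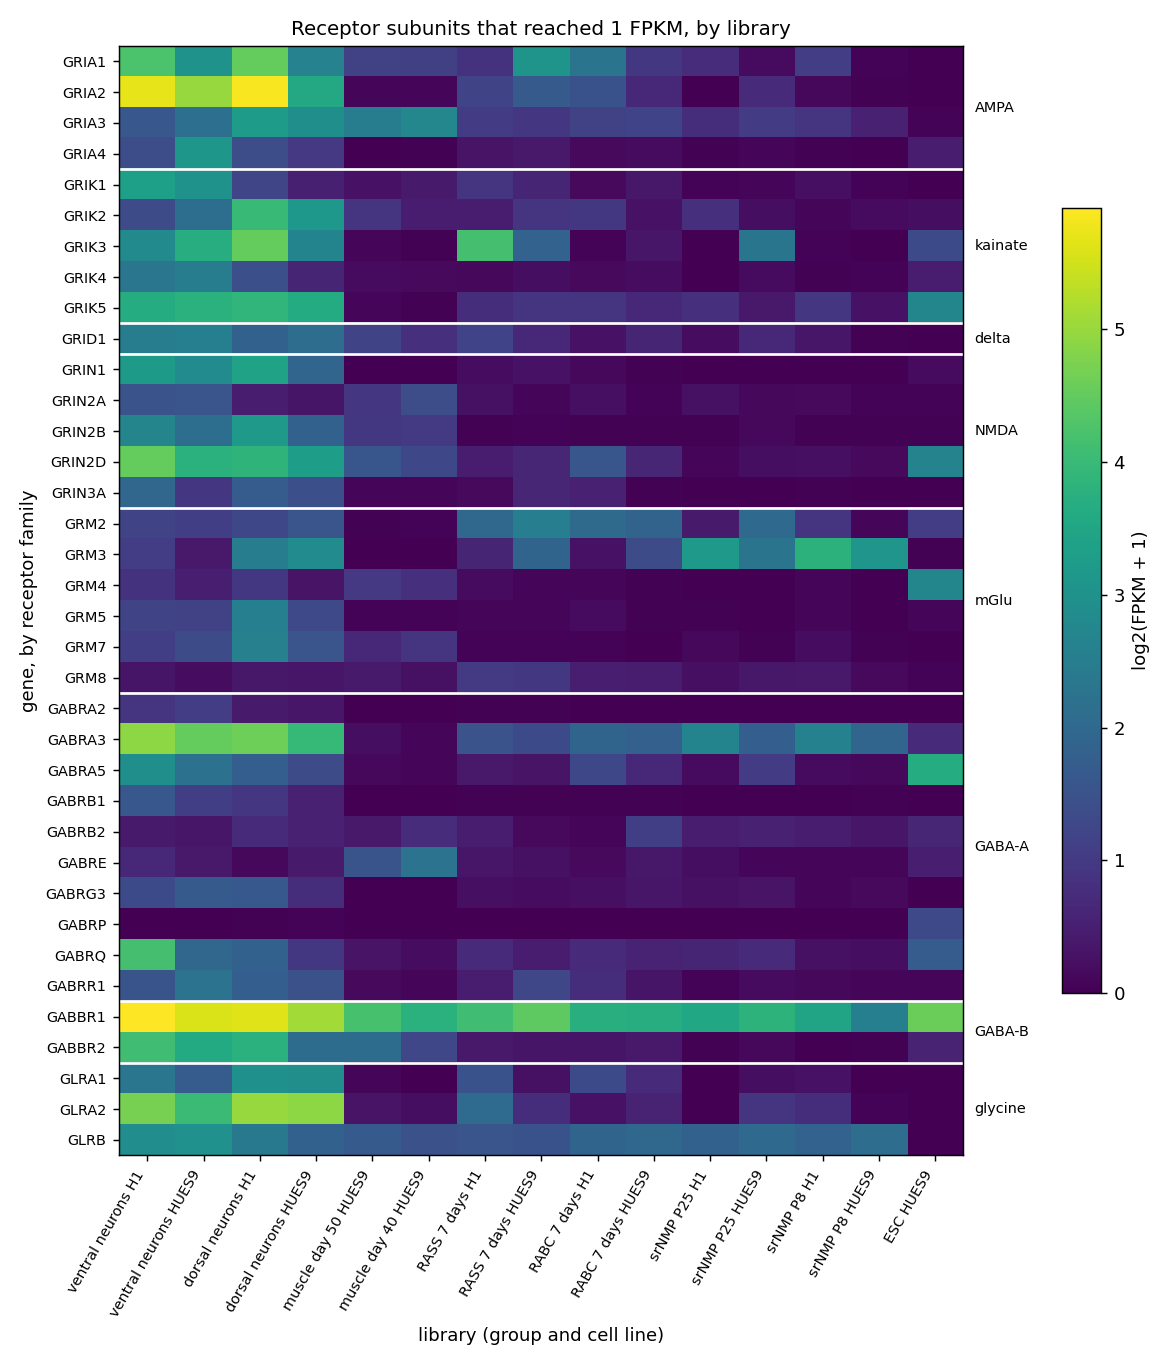
Heat map of log2(FPKM + 1) for 36 receptor subunits that reached 1 FPKM, one row per gene grouped by family and one column per library. The 4 neuron libraries carry most of the signal, GABRA5 is also bright in ESCs at 11.6 FPKM, and GRM3 is brightest in the srNMP columns.

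Most subunits that could be tested were higher in neurons than in srNMPs. In ventral neurons 34 of the 39 tested members rose and 1, GRM3, fell, where 44.9% of all genes were called, 25.8% higher and 19.1% lower. In dorsal neurons 29 of 39 rose and 0 fell, where 38.4% of all genes were called, 20.9% higher and 17.5% lower; at an unadjusted p under 0.05 the dorsal count in either direction was 31. The median change of the tested members was 1.89 in ventral and 1.51 in dorsal neurons, beside 0.08 and 0.02 for all genes. A member enters the test by reaching 1 FPKM in any library, and for most members that library is a neuron, so these counts describe the tested members only. Both comparisons use the same srNMP libraries. Of 4 astrocyte markers 3 were tested, and 3 rose in ventral and 0 in dorsal neurons. The 4 summed to 24.4 and 16.0 FPKM in ventral neurons and 16.5 and 1.52 FPKM in dorsal neurons, against 0.724, 0.904, 0.481 and 7.28 FPKM in srNMPs, with AQP4 at most 0.205 FPKM in the neuron libraries, and their part in the subunit changes was not tested. Leaving out the H1 library labelled dorsal neurons reduced the dorsal count to 17 and the count over all genes to 1536, against 5419 with all libraries.

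**Figure D2:**
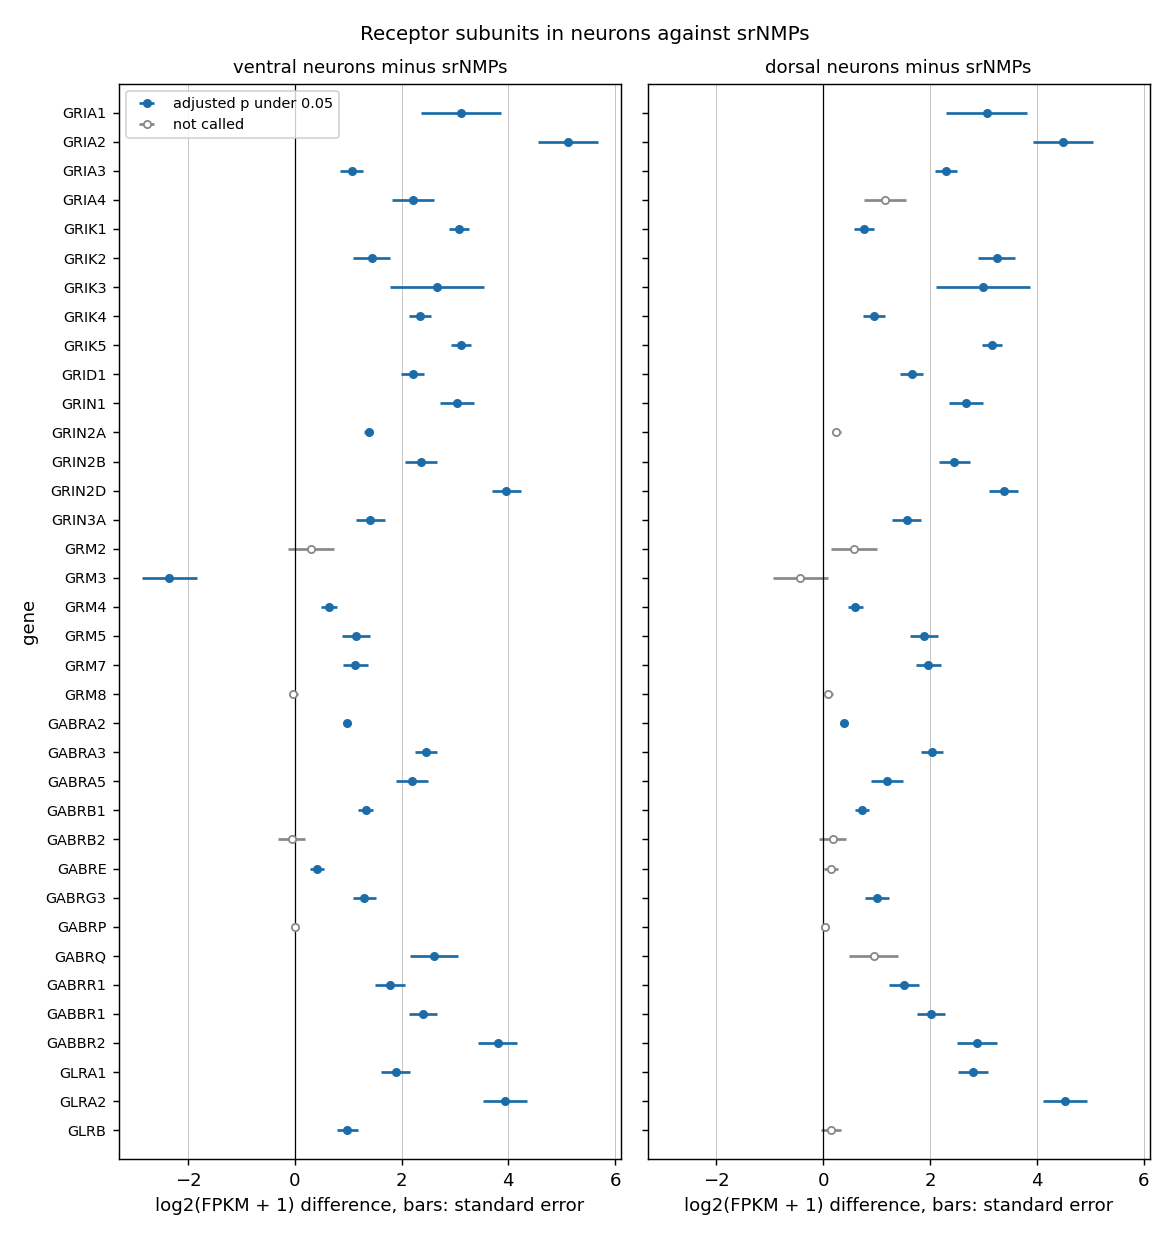
Difference in log2(FPKM + 1) between neurons and srNMPs for each of 36 subunits, ventral neurons on the left and dorsal neurons on the right. Points are estimates, bars are standard errors, filled points are called at an adjusted p under 0.05; GRIA2 lies farthest right for ventral neurons at 5.12 and GLRA2 for dorsal neurons at 4.52, and GRM3 lies left of 0.

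AMPA receptors carry fast excitation, and GRIA2 was their leading transcript in neurons. GRIA2, the subunit whose edited form makes the channel nearly impermeable to calcium, had 50.5 and 30.9 FPKM in ventral neurons and 56.6 and 10.9 FPKM in dorsal neurons, against 0.0148, 0.632, 0.0896 and 0.0233 FPKM in srNMPs. Its change from srNMPs was 5.12 ± 0.56 in ventral neurons (adjusted p = 0.000798) and 4.49 ± 0.56 in dorsal neurons (adjusted p = 0.00187), and the groups did not overlap. GRIA1, which recruits AMPA receptors during plasticity, had 17.9 and 7.06 FPKM in ventral neurons and 21.9 and 5.17 FPKM in dorsal neurons, against 0.673, 0.126, 1.11 and 0.0370 FPKM in srNMPs. Both genes were higher in the H1 than in the HUES9 library of each neuron type, as were the summed levels of all members. GRIA1 changed by 3.11 ± 0.75 (adjusted p = 0.0143) in ventral and 3.06 ± 0.75 (adjusted p = 0.0182) in dorsal neurons. GRIA3, whose level was also above 1 FPKM in muscle, had 2.03 and 3.46 FPKM in ventral neurons and 8.66 and 6.70 FPKM in dorsal neurons, against 0.698, 1.03, 0.873 and 0.463 FPKM in srNMPs. It rose by 1.07 ± 0.21 (adjusted p = 0.00679) in ventral and 2.30 ± 0.21 (adjusted p = 0.000793) in dorsal neurons. GRIA4, a subunit of fast-gating receptors, averaged 4.70 FPKM in ventral neurons and 1.31 FPKM in dorsal neurons, but 7.78 FPKM came from the HUES9 ventral library and 1.62 FPKM from the H1 one. It rose in ventral neurons (2.22 ± 0.39, adjusted p = 0.00429) and was not called in dorsal neurons (1.15 ± 0.39, adjusted p = 0.0548). GRIA2 made up 70.1% and 62.8% of the summed GRIA1 to GRIA4 level in ventral neurons and 63.7% and 46.0% in dorsal neurons.

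**Figure D3:**
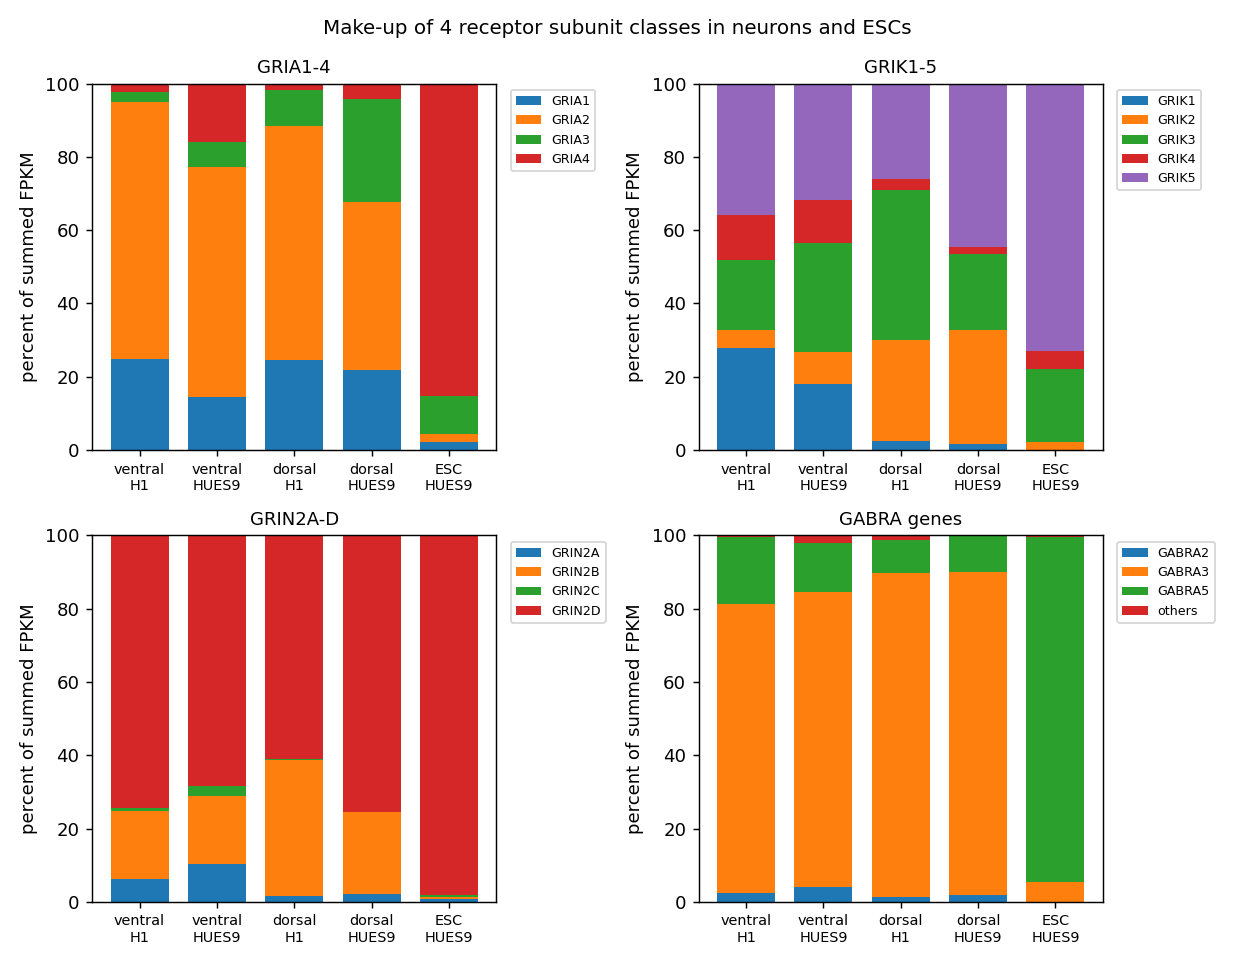
Share of each gene in the summed FPKM of its class, for GRIA1-4, GRIK1-5, GRIN2A-D and the GABRA genes, in the ventral neuron, dorsal neuron and ESC libraries. GRIA2, GRIN2D and GABRA3 are the leading genes of their class in the neuron libraries, with GRIA2 lowest at 46.0% in the HUES9 dorsal library, whereas GRIA4 and GABRA5 lead in ESCs. The GRIA4 share in the 1 ESC library is of a summed GRIA1-4 level of only 0.463 FPKM, with GRIA4 itself at 0.394 FPKM.

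Kainate receptors act on both sides of the synapse, and all 5 of their subunits rose in both kinds of neuron. Under other settings or with a library left out, some calls were lost at least once. These were GRIK2 and GRIK3 in ventral and GRIK1, GRIK3 and GRIK4 in dorsal neurons, whereas GRIK5 kept its call in both throughout. Of all genes, 25.8% rose in ventral and 20.9% in dorsal neurons. GRIK5, a high-affinity subunit that must pair with GRIK1 to GRIK3, was even across neurons, with 11.6 and 12.7 FPKM in ventral and 13.8 and 11.4 FPKM in dorsal neurons, against 0.744, 0.329, 0.900 and 0.216 FPKM in srNMPs. Its changes were 3.11 ± 0.19 (adjusted p = 0.000132) and 3.15 ± 0.19 (adjusted p = 0.000281). GRIK2, the most widely studied kainate channel subunit, had 1.59 and 3.39 FPKM in ventral neurons and 14.7 and 7.92 FPKM in dorsal neurons, against 0.734, 0.159, 0.0514 and 0.122 FPKM in srNMPs. GRIK1 showed the opposite order, with 9.06 and 7.23 FPKM in ventral neurons and 1.36 and 0.427 FPKM in dorsal neurons, against 0.0373, 0.0594, 0.178 and 0.0424 FPKM in srNMPs. Thus GRIK1 held 27.9% and 18.1% of the kainate total in ventral and 2.55% and 1.67% in dorsal neurons, and GRIK2 held 4.89% and 8.50% in ventral and 27.5% and 31.0% in dorsal neurons. GRIK3 was uneven between lines. It had 6.13 and 11.9 FPKM in ventral neurons and 21.8 and 5.31 FPKM in dorsal neurons, against 0.00611, 3.92, 0.0381 and 0.0145 FPKM in srNMPs, and its changes of 2.67 ± 0.89 (adjusted p = 0.0443) and 2.99 ± 0.89 (adjusted p = 0.0342) have wide errors. GRIK4, the other high-affinity subunit, averaged 4.33 ± 0.46 FPKM in ventral and 1.12 ± 0.83 FPKM in dorsal neurons (SD, n = 2 each). The delta subunit GRID1, which joins synapses through cerebellins rather than by conducting current, averaged 4.77 FPKM in ventral and 2.95 FPKM in dorsal neurons and rose in both (2.21 ± 0.22 and 1.65 ± 0.22).

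NMDA receptors need GRIN1 in every assembly, and in neurons GRIN1 came with GRIN2D and GRIN2B. GRIN1 had 8.37 and 6.25 FPKM in ventral neurons and 9.64 and 2.83 FPKM in dorsal neurons, against 0, 0.00525, 0.0101 and 0 FPKM in srNMPs. GRIN2D, a subunit of slowly closing receptors typical of the embryonic brain stem and spinal cord in rodents, had 21.7 and 12.8 FPKM in ventral neurons and 13.3 and 8.71 FPKM in dorsal neurons, against 0.0757, 0.171, 0.189 and 0.105 FPKM in srNMPs. GRIN2B, the other early subunit, had 5.41 and 3.41 FPKM in ventral neurons and 8.03 and 2.58 FPKM in dorsal neurons, against 0.0170, 0.0905, 0.0172 and 0.0188 FPKM in srNMPs. Every neuron library ranked GRIN2D above GRIN2B. GRIN2D rose by 3.96 ± 0.27 (adjusted p = 0.000175) in ventral and 3.38 ± 0.27 (adjusted p = 0.00051) in dorsal neurons, GRIN1 by 3.04 ± 0.32 and 2.67 ± 0.32, and GRIN2B by 2.36 ± 0.30 and 2.46 ± 0.30. Within GRIN2A to GRIN2D, GRIN2D took 74.3% and 68.5% in ventral and 61.1% and 75.4% in dorsal neurons. GRIN2A, which replaces GRIN2B as many forebrain synapses mature, reached 1.85 and 1.94 FPKM in ventral neurons and 0.368 and 0.255 FPKM in dorsal neurons. GRIN3A, a subunit that lowers calcium entry, averaged 1.88 FPKM in ventral and 2.01 FPKM in dorsal neurons and rose in both (1.42 ± 0.27 and 1.56 ± 0.27).

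The metabotropic receptors did not share a direction. GRM3, a Gi-coupled receptor known from astrocytes and some neurons, was led by srNMPs: it had 1.11 and 0.330 FPKM in ventral neurons and 4.55 and 6.18 FPKM in dorsal neurons, against 8.23, 3.82, 13.0 and 7.44 FPKM in srNMPs. It fell in ventral neurons by 2.35 ± 0.51 on the log2 scale (adjusted p = 0.00978), and in dorsal neurons, whose libraries overlap the srNMPs, the difference was -0.43 ± 0.51 (adjusted p = 0.539). GRM2, its closest relative, was instead highest in the 7-day inductions, at 3.88 FPKM in RASS and 2.90 FPKM in RABC on average, with 1.23 FPKM in ventral and 1.70 FPKM in dorsal neurons. The Gq-coupled GRM5 averaged 1.28 FPKM in ventral and 3.16 FPKM in dorsal neurons, and the presynaptic GRM7 averaged 1.37 FPKM in ventral and 3.43 FPKM in dorsal neurons. Both rose in both kinds of neuron, GRM5 by 1.15 ± 0.26 and 1.89 ± 0.26 and GRM7 by 1.14 ± 0.23 and 1.96 ± 0.23. GRM4, another presynaptic receptor, had 0.821 and 0.407 FPKM in ventral neurons and 0.958 and 0.234 FPKM in dorsal neurons, against 0.0139, 0.00347, 0.0767 and 0.00330 FPKM in srNMPs. GRM8 stayed between 0.151 and 0.309 FPKM in neurons and peaked in RASS at 1.01 and 0.943 FPKM.

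GABA-A receptors, the main GABA-gated chloride channels, had 10 of 12 tested subunits higher in ventral and 8 of 12 in dorsal neurons than in srNMPs, and 0 lower. Over all genes, 25.8% were higher and 19.1% lower in ventral neurons, and 20.9% and 17.5% in dorsal neurons. The other 6 GABA-A subunits stayed under 1 FPKM and went untested. GABRA3, an α subunit prominent before birth, had 28.8 and 21.8 FPKM in ventral neurons and 23.4 and 14.6 FPKM in dorsal neurons, against 5.39, 2.41, 5.10 and 2.79 FPKM in srNMPs. This gene was already present in srNMPs, and every neuron library exceeded every srNMP library. GABRA3 rose by 2.46 ± 0.21 (adjusted p = 0.000321) in ventral and 2.04 ± 0.21 (adjusted p = 0.000999) in dorsal neurons. GABRA5, an extrasynaptic α subunit, had 6.66 and 3.63 FPKM in ventral neurons and 2.40 and 1.59 FPKM in dorsal neurons, against 0.132, 1.03, 0.134 and 0.0937 FPKM in srNMPs. GABRQ, the θ subunit, had 17.0 FPKM in the H1 ventral library, 2.86 FPKM in the HUES9 ventral library and 2.54 and 0.945 FPKM in dorsal neurons, against 0.532, 0.619, 0.205 and 0.162 FPKM in srNMPs. It was called in ventral neurons (2.61 ± 0.45, adjusted p = 0.00395) and not in dorsal neurons (0.94 ± 0.45, adjusted p = 0.139). GABRA3 held 78.8% and 80.4% of the α subunit total in ventral and 88.3% and 88.3% in dorsal neurons.

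Other GABA-A subunits were low. GABRR1, a ρ subunit best known from the retina, averaged 2.84 FPKM in ventral and 2.09 FPKM in dorsal neurons and rose in both (1.79 ± 0.28 and 1.51 ± 0.28). GABRG3, averaging 1.86 FPKM in ventral and 1.40 FPKM in dorsal neurons, also rose in both (1.31 ± 0.22 and 1.00 ± 0.22). So did GABRB1, averaging 1.59 FPKM in ventral and 0.689 FPKM in dorsal neurons (1.33 ± 0.14 and 0.72 ± 0.14). GABRB2, the common adult β subunit, stayed between 0.280 and 0.625 FPKM in neurons and was not called (-0.05 ± 0.25 in ventral and 0.17 ± 0.25 in dorsal neurons). GABRA5 and GABRG3 are neighbours on chromosome 15, and GABRA3 and GABRQ on chromosome X, with 0 protein-coding genes between each adjacent pair in the RefSeq annotation of GRCh38.p14.

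GABA-B receptors form only when GABBR1, which binds GABA, is joined by GABBR2, which couples to G proteins and carries GABBR1 to the surface. GABBR1 was present in all 15 libraries, with 59.1 and 46.5 FPKM in ventral neurons and 48.0 and 33.3 FPKM in dorsal neurons, against 10.6, 13.1, 9.86 and 4.87 FPKM in srNMPs. GABBR2 had 16.1 and 11.1 FPKM in ventral neurons and 12.6 and 3.25 FPKM in dorsal neurons, against 0.0189, 0.0846, 0.00904 and 0.0268 FPKM in srNMPs. So srNMPs held the first partner almost without the second, while neurons held both. GABBR1 rose by 2.40 ± 0.27 (adjusted p = 0.000811) in ventral and 2.02 ± 0.27 (adjusted p = 0.00219) in dorsal neurons, and GABBR2 by 3.80 ± 0.37 (adjusted p = 0.000531) and 2.88 ± 0.37 (adjusted p = 0.00196).

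Glycine receptors combine α subunits with the β subunit GLRB, which ties them to gephyrin. GLRA2, the α subunit of the fetal receptor in rodents, had 25.1 and 15.3 FPKM in ventral neurons and 30.9 and 29.1 FPKM in dorsal neurons, against 0.0102, 0.850, 0.710 and 0.0385 FPKM in srNMPs. GLRA2 had changes of 3.94 ± 0.41 (adjusted p = 0.0007) and 4.52 ± 0.41 (adjusted p = 0.000737), the first in ventral and the second in dorsal neurons. GLRA1, the α subunit that prevails in the mature spinal cord, had 4.01 and 2.31 FPKM in ventral neurons and 6.84 and 6.53 FPKM in dorsal neurons, against 0.0158, 0.173, 0.227 and 0 FPKM in srNMPs. GLRA2 exceeded GLRA1 in all 4 neuron libraries and made up 85.5% and 83.1% of the α total in ventral and 80.4% and 81.5% in dorsal neurons. GLRA1 rose by 1.89 ± 0.27 in ventral and 2.80 ± 0.27 in dorsal neurons. GLRB differed from the α subunits in being present before neurons formed: it had 6.43 and 7.00 FPKM in ventral neurons and 4.23 and 2.54 FPKM in dorsal neurons, against 2.59, 3.07, 2.63 and 3.32 FPKM in srNMPs. It rose in ventral neurons (0.99 ± 0.20, adjusted p = 0.00655), and in dorsal neurons, which overlapped the srNMPs, the difference was 0.14 ± 0.20 (adjusted p = 0.59).

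Ventral and dorsal neurons differed in few subunits by the test. Higher in ventral neurons were 4 of 39 tested members, GRIK1, GRIK4, GRIN2A and GABRA2, and 0 were lower, where 2.04% of all genes were called, 1.47% higher and 0.573% lower; 16 members had an unadjusted p under 0.05. GRIK1 was higher by 2.31 ± 0.22 (adjusted p = 0.00392) and GRIN2A by 1.14 ± 0.09 (adjusted p = 0.00223), with both ventral libraries above both dorsal ones. GRIK4, at 4.01 and 4.65 FPKM in ventral and 1.70 and 0.526 FPKM in dorsal neurons, was higher by 1.39 ± 0.24 (adjusted p = 0.038), and GABRA2, at 0.873 and 1.10 FPKM in ventral and 0.353 and 0.290 FPKM in dorsal neurons, by 0.58 ± 0.08 (adjusted p = 0.0186). GABRA2 reached 1 FPKM only in the HUES9 ventral library, so it entered the test through the group in which it was higher. GRIK2 and GRIA3 lay the other way in both lines, at -1.81 ± 0.40 (adjusted p = 0.0805) and -1.23 ± 0.25 (adjusted p = 0.0591), and were not called. GLRA1 was also lower in both ventral libraries (-0.92 ± 0.32, adjusted p = 0.21), and GLRB was higher in both (0.84 ± 0.23, adjusted p = 0.13). Fitted on the 4 neuron libraries alone, with 1 library per line and type, 0 members were called and 14 had an unadjusted p under 0.05. GRIK4 lost its call without either ventral library and without any 1 library of RASS, RABC or srNMPs, and GABRA2 lost it without the HUES9 dorsal library. Cycling-cell markers, higher in the dorsal libraries, and the astrocyte marker ALDH1L1, higher in the ventral ones (1.44 ± 0.18, adjusted p = 0.0138), moved with these differences and their part in them was not tested.

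**Figure D4:**
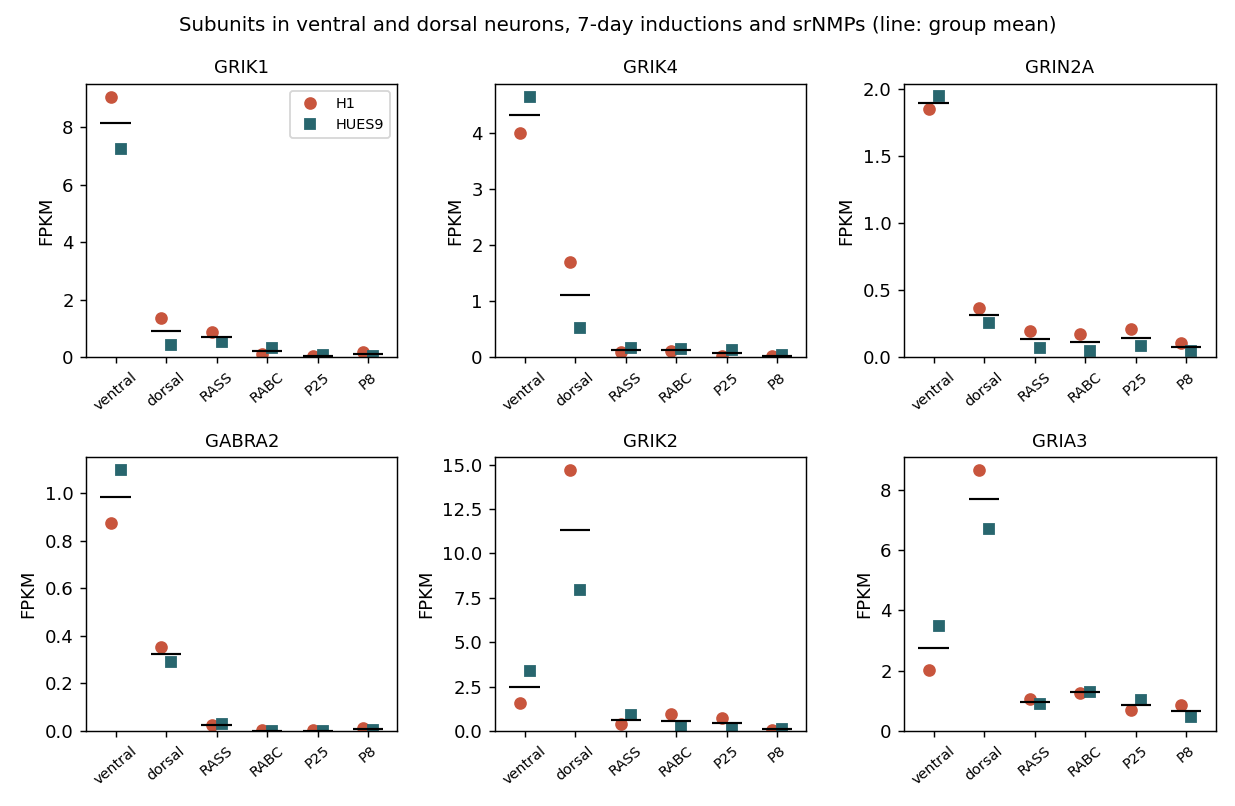
FPKM of 6 subunits in ventral neurons, dorsal neurons, RASS, RABC and srNMPs at P25 and P8; circles are H1, squares HUES9 and lines group means. GRIK1, GRIK4, GRIN2A and GABRA2 are higher in both ventral libraries, GRIK2 and GRIA3 in both dorsal ones, and all 6 are near their lowest in srNMPs.

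Genes of transmitter supply set these receptors in context. GAD2, which makes GABA, had 1.42 and 0.228 FPKM in ventral neurons and 21.6 and 14.5 FPKM in dorsal neurons (-3.44 ± 0.40, adjusted p = 0.00972), and the glycine transporter SLC6A5 4.82 and 0.117 FPKM in ventral and 38.1 and 27.9 FPKM in dorsal neurons (-3.72 ± 0.75, adjusted p = 0.06). The vesicular glutamate transporter SLC17A6 had 25.7 and 11.9 FPKM in ventral and 17.6 and 10.3 FPKM in dorsal neurons. Of 6 tested supply genes, 2 rose and 1 fell in ventral neurons against srNMPs, and 4 rose and 0 fell in dorsal neurons, beside 25.8% of all genes higher and 19.1% lower in ventral and 20.9% and 17.5% in dorsal neurons.

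Against the 7-day inductions the neuron cultures were again higher. Dorsal neurons exceeded RABC for 19 of 39 tested members and fell below for 0, where 17.5% of all genes were called, 10.7% higher and 6.81% lower. Ventral neurons exceeded RASS for 25 and fell below for 1, GRM8, where 23.7% of all genes were called, 13.8% higher and 9.98% lower. GLRA2 was the clearest case in dorsal neurons, with 30.9 and 29.1 FPKM against 0.228 and 0.471 FPKM in RABC (4.53 ± 0.48, adjusted p = 0.00321). In ventral neurons GABBR2 led the G protein-coupled members, with 16.1 and 11.1 FPKM against 0.332 and 0.257 FPKM in RASS (3.48 ± 0.42, adjusted p = 0.00306). The ventral count in either direction was 26, and 27 with the RASS lines exchanged. It was 17 without the H1 RASS library. The dorsal count was 9 without the H1 dorsal library, 9 without the H1 RABC library and 8 without the HUES9 RABC library. GRIA1 had 0.825 FPKM in the H1 library labelled RASS and 7.36 FPKM in the HUES9 one, and its difference of 1.66 ± 0.87 became -0.041 ± 0.39 without the H1 RASS library. GRIK3 had 16.9 and 2.61 FPKM in RASS and 0.0387 and 0.284 FPKM in RABC.

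The 7-day inductions (RASS and RABC in 1 contrast) differed from srNMPs in 3 members, 2 higher and 1 lower, where 3.43% of all genes were called, 1.73% higher and 1.69% lower. GRM8 was higher (0.44 ± 0.08, adjusted p = 0.0337) and GRM3 lower (-2.05 ± 0.42, adjusted p = 0.0498) in the inductions. GRM8 reached 1 FPKM only in the H1 RASS library, so it entered both this test and that of ventral neurons against RASS through the group in which it was high. GRM3 had 0.516 and 2.74 FPKM in RASS and 0.222 and 1.57 FPKM in RABC, all below the lowest srNMP library at 3.82 FPKM. None of the 3 calls held in every fit that left out 1 library. Without both RASS libraries 0 members were called by limma and 7 had an unadjusted p under 0.05, and GRM8, which then reached 1 FPKM in no library, could not be tested. GABBR1 had 16.1 and 20.9 FPKM in RASS and 11.97 and 11.9 FPKM in RABC, against 10.6, 13.1, 9.86 and 4.87 FPKM in srNMPs (0.64 ± 0.22, adjusted p = 0.138). RASS and RABC were not tested against each other.

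Muscle cultures held few subunits at 1 FPKM or more. Against srNMPs, 8 of 39 tested members were higher and 3 lower, where 49.8% of all genes were called, 18.2% higher and 31.6% lower, so the share of members called higher was close to the background. GRIA3 had 4.63 FPKM at day 50 and 5.62 FPKM at day 40, against 0.698, 1.03, 0.873 and 0.463 FPKM in srNMPs (1.80 ± 0.23, adjusted p = 0.000732), and made up 78.4% and 81.4% of the AMPA total. GABRE, the ε subunit, had 1.90 and 3.73 FPKM, against 0.0493 to 0.163 FPKM in srNMPs (1.77 ± 0.14, adjusted p = 8.35e-05), and is one of the few members highest in muscle. GABRE reached 1 FPKM only in the muscle libraries, so it entered the test through the group in which it was high. GRIN2D had 1.98 and 1.44 FPKM, GRIN2A 0.900 and 1.65 FPKM and GRIN2B 0.944 and 0.998 FPKM in muscle, and all 3 rose (1.42 ± 0.28, 1.07 ± 0.09 and 1.07 ± 0.32). GRIN1, which every NMDA receptor needs, had only 0.0109 and 0.00523 FPKM there. GABBR1 had 17.2 and 12.8 FPKM (0.74 ± 0.28, adjusted p = 0.0636) and GABBR2 3.29 and 1.41 FPKM (1.81 ± 0.39, adjusted p = 0.0073), and the GABA-B auxiliary gene KCTD12 had 88.8 and 82.4 FPKM. GRM4 and GRM7 were also higher, by 0.97 ± 0.16 and 0.77 ± 0.25. Among those lower in muscle were GABRA3, with 0.171 and 0.0550 FPKM (-1.85 ± 0.22, adjusted p = 0.000546), and GRM3, with 0.00981 and 0 FPKM (-3.12 ± 0.54, adjusted p = 0.00304). The muscle libraries also held fibroblast markers, of which 4 of 4 rose, and neuronal markers at 91.1 and 61.9 FPKM, mostly DCX at 76.3 and 43.8 FPKM; STMN2 was at 1.31 and 1.92 FPKM. Which cells carry the subunits was not tested. Since both libraries are HUES9 and neither day has a replicate, the errors borrow the spread of the other groups, and between days the values stand without a test. Without the day 50 library the call for GABBR2 was lost, and without either library those for GRIN2B and GRM7 were lost.

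GABBR1, GABRA5, GRIK5, GRM4 and GRIN2D all exceeded 5 FPKM in the ESC library. In srNMPs 3 of 39 tested members were higher than in ESCs and 7 lower, where 16.7% of all genes were called, 8.73% higher and 7.93% lower. GABRA5 had 0.132, 1.03, 0.134 and 0.0937 FPKM in srNMPs, against 11.6 FPKM in ESCs (-3.37 ± 0.41, adjusted p = 0.00205), and took 94.2% of the α subunit total there. GABRG3, its neighbour on chromosome 15, was listed at 0 in ESCs. GABRP, the π subunit known mainly from epithelia, had 0 to 0.00812 FPKM in srNMPs and 1.49 FPKM in ESCs. GABRQ had 2.27 FPKM in ESCs and was not called (-1.55 ± 0.60, adjusted p = 0.129). Among glutamate receptor genes, GRM4 had 0.0139, 0.00347, 0.0767 and 0.00330 FPKM in srNMPs, against 5.53 FPKM in ESCs (-2.78 ± 0.20, adjusted p = 0.000143), GRIK5 0.744, 0.329, 0.900 and 0.216 FPKM, against 5.55 FPKM in ESCs (-2.21 ± 0.25, adjusted p = 0.00164), and GRIN2D 0.0757, 0.171, 0.189 and 0.105 FPKM, against 5.24 FPKM in ESCs (-2.63 ± 0.35, adjusted p = 0.00344). GABBR1 was also lower in srNMPs than in ESCs, at 22.9 FPKM (-1.33 ± 0.36, adjusted p = 0.0445), a call lost without any 1 library of ventral neurons, dorsal neurons or RABC. The partners of these subunits were near 0 in ESCs, with 0.121 FPKM for GRIN1 and 0.493 FPKM for GABBR2. Higher in srNMPs than in ESCs were GRM3 (3.09 ± 0.69, adjusted p = 0.0249), whose ESC value was 0.0248 FPKM, GLRB (1.94 ± 0.26, adjusted p = 0.00337), at 0.0121 FPKM in ESCs, and GABRA3 (1.28 ± 0.28, adjusted p = 0.0218), at 0.644 FPKM in ESCs. ESCs are 1 library, and these errors come from the other groups. GRM4 and GABRP reached 1 FPKM only in that library, so they entered the test through the group in which they were high.

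**Figure D5:**
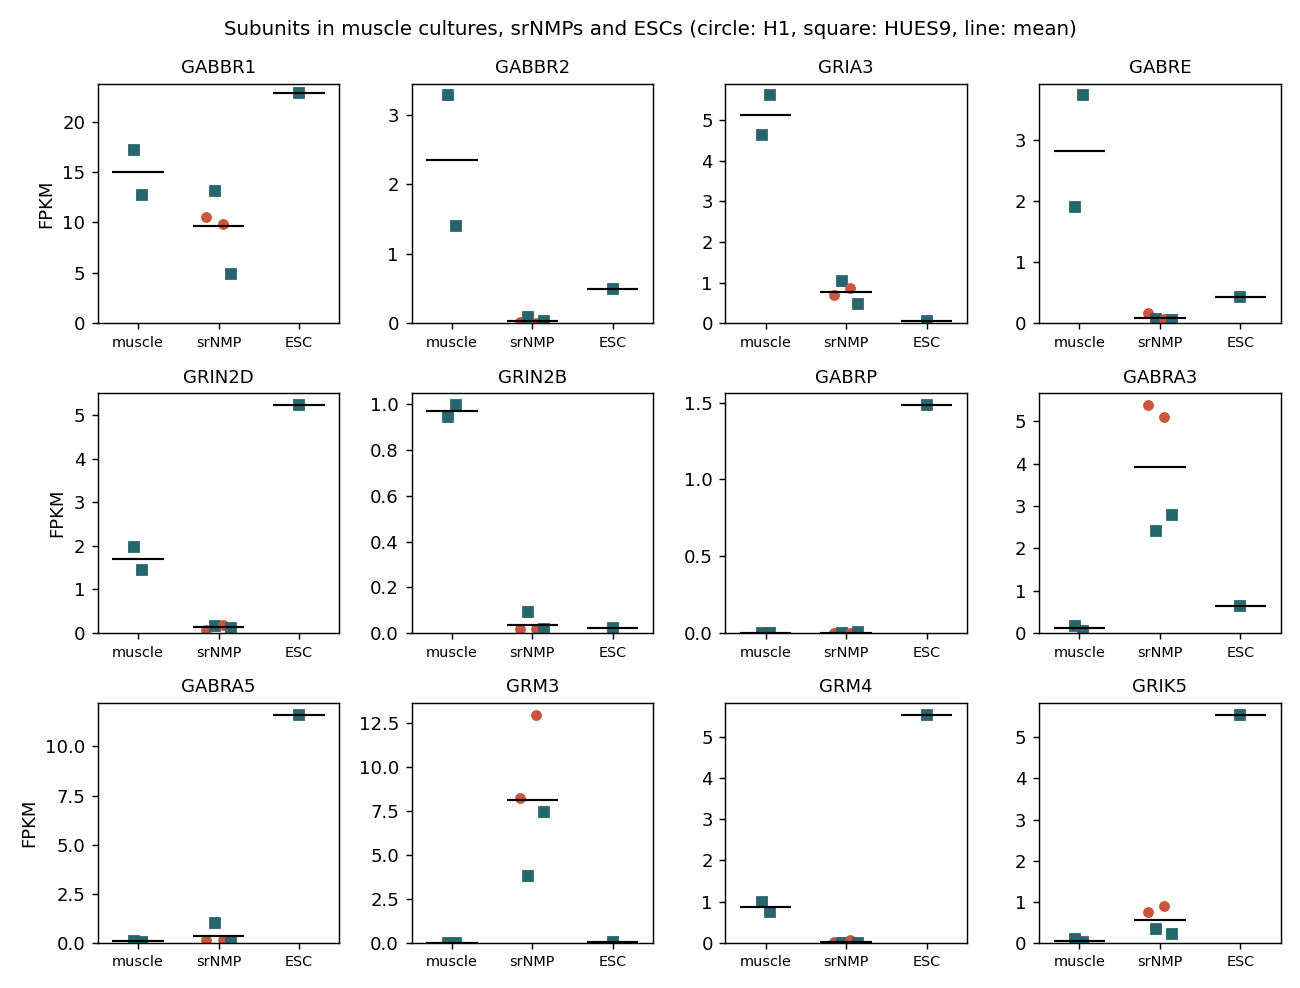
FPKM of 12 subunits in muscle (day 50 then day 40), srNMPs (P25 H1, P25 HUES9, P8 H1, P8 HUES9) and ESCs; circles are H1, squares HUES9 and lines means over the libraries shown. GRIA3 and GABRE are highest in muscle, GRM3 and GABRA3 in srNMPs, and GABRA5, GABRP, GRM4 and GRIK5 in ESCs.

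Between passages, srNMP levels of most members were close to 0 in every library. GRIK3 had 0.00611 and 3.92 FPKM at P25, and 0.0381 and 0.0145 FPKM at P8. The HUES9 P25 library that was high for GRIK3 also held the neuronal markers DCX at 8.26 FPKM and STMN2 at 72.0 FPKM, beside 0.240 to 3.28 FPKM and 2.47 to 13.3 FPKM in the other 3 srNMP libraries, and their part in these levels was not tested. GRM3 was lower at P25, with 8.23 and 3.82 FPKM, than at P8, with 13.0 and 7.44 FPKM, in both lines, and was not tested between passages.

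Genes that serve these receptors were described from lists chosen with earlier results of these data known. Their counts stand beside 25.8% of all genes higher and 19.1% lower in ventral neurons, and 20.9% higher and 17.5% lower in dorsal neurons. Of 12 AMPA receptor auxiliary genes, 10 rose in ventral and 9 in dorsal neurons against srNMPs, and 0 fell. CACNG4, a trafficking protein of the stargazin family, had 92.5 and 131.4 FPKM in ventral neurons and 92.1 and 83.2 FPKM in dorsal neurons, against 12.9, 20.1, 18.6 and 11.6 FPKM in srNMPs. CACNG2, stargazin itself, had 3.04 and 4.47 FPKM in ventral neurons and 0.935 and 0.410 FPKM in dorsal neurons, and was higher in ventral neurons by 1.51 ± 0.18 (adjusted p = 0.0121), as was GSG1L (1.18 ± 0.14, adjusted p = 0.0112). The kainate auxiliary gene NETO2 ran the other way, with 6.93 and 5.10 FPKM in ventral and 17.2 and 16.2 FPKM in dorsal neurons (-1.35 ± 0.20, adjusted p = 0.0244). Of the 7 inhibitory anchoring genes 5 rose and 0 fell in ventral neurons, and 5 rose and 0 fell in dorsal neurons. LHFPL4, a partner of GABA-A receptors, rose by 3.28 ± 0.30 in ventral and 2.47 ± 0.30 in dorsal neurons, while gephyrin (GPHN) had 14.2 and 15.4 FPKM in ventral and 17.4 and 13.5 FPKM in dorsal neurons, against 12.5, 12.3, 12.1 and 13.8 FPKM in srNMPs (0.20 ± 0.16 and 0.25 ± 0.16). Among 10 glutamate receptor scaffold genes 3 rose and 2 fell in ventral neurons, near the shares over all genes, and 4 rose and 1 fell in dorsal neurons. DLG4, the main postsynaptic density scaffold, rose by 1.51 ± 0.35 and 1.56 ± 0.35, and DLG1 fell by 1.39 ± 0.17 and 1.14 ± 0.17 on the log2 scale. The chloride exporter SLC12A5, whose appearance makes GABA and glycine inhibitory, had 9.24 and 7.69 FPKM in ventral neurons and 7.74 and 2.74 FPKM in dorsal neurons, against 0.168, 0.195, 0.250 and 0.0485 FPKM in srNMPs, and rose in both (3.02 ± 0.31 and 2.30 ± 0.31). The chloride importer SLC12A2 had 10.3 and 9.36 FPKM in ventral neurons and 2.995 and 3.56 FPKM in dorsal neurons, and rose in ventral neurons against srNMPs (1.09 ± 0.33, adjusted p = 0.031); the ventral minus dorsal difference was 1.34 ± 0.38 (adjusted p = 0.141).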

How the data were processed

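RNA of 15 human embryonic stem cell-derived cultures was measured by poly(A) RNA-seq with a stranded kit. The deposited table gives FPKM for 17999 gene symbols. The authors' processing named Trimmomatic, HISAT2, HTSeq, Cufflinks and the hg18 build, per the submitters' processing notes, without versions; whether strand was used in counting is not given in the sources used here, so antisense partners cannot be told apart. Column names gave the sample, and 1 column that matched no sample was not used. Genes at 1 FPKM or more in at least 1 library were fitted on log2(FPKM + 1) with limma 3.58.1 in R 4.3.3 (group means, a cell-line term, intensity trend, Benjamini-Hochberg adjustment over 14129 genes, called at an adjusted p under 0.05; 5 residual and 2.16 prior degrees of freedom). The scale understates changes of low genes. The fit was also run on simulated data in which only genes of higher mean level were changed. That run does not cover subunits of low level. The cell line, named in the labels, is the replicate block. Deviations of same-line libraries correlated at 0.0691 to 0.377 between pairs of groups without RASS and negatively with RASS. Where only 1 HUES9 library exists, its spread is taken from the other groups. Counts behind the values are not in the table; of the low values, most were whole multiples of 1 fragment, which gave the relative depths. No separate cultures are named beyond the line, so p-values measure only the spread between these samples.

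Some members are not reported here, although counts include them. The members and lists were chosen with earlier results of these data known. Members with a group mean of at least 5 FPKM are named with the values of every library compared, those of 1 to 5 FPKM with means or ranges, those under 1 FPKM with their highest value, and those that differed between ventral and dorsal neurons at any level; of listed genes, examples with a group mean of at least 5 FPKM were chosen by size, and GSG1L, CACNG2, GPHN, SLC12A2, SLC17A6 and the markers DCX and STMN2 were chosen after their values were seen. Alternatives were a pseudocount of 0.1, no filter, quantile normalization, equal summed FPKM, no line term, only the groups compared and leaving out each library; exchanging the RASS lines and leaving out both RASS libraries were added after seeing the data. Promoter windows came from RefSeq on GRCh38.p14, a build other than that of the table, so no coordinates were matched between them.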

Additional observations from a re-analysis of the deposited data

Results flagged for a closer look

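In sets of 4 libraries (RASS with RABC, or srNMPs at P25 with P8), an FPKM value was singled out by its gap to the nearest other value, divided by the range. The cutoff was Dixon's 95% critical value, whose rate of about 1 in 20 is for draws from 1 normal distribution. These sets pool different groups and both lines, so that rate does not apply and the flags are descriptions. Of 16 sets examined, 2 values passed. Both were in the 7-day inductions. GLRA2 had 3.16 FPKM in the library labelled H1 RASS, beside 0.228 to 0.719 FPKM, and GRIK3 had 16.9 FPKM there, beside 0.0387 to 2.61 FPKM.

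The change from srNMPs differed between ventral and dorsal neurons for 4 genes by limma's test of the difference. It was 0.98 in ventral and 0.39 in dorsal neurons for GABRA2 (difference 0.58, adjusted p = 0.0186), 3.08 and 0.77 for GRIK1 (difference 2.31, adjusted p = 0.00392), 2.35 and 0.96 for GRIK4 (difference 1.39, adjusted p = 0.038) and 1.38 and 0.24 for GRIN2A (difference 1.14, adjusted p = 0.00223). In each of these genes the ventral libraries were higher in both lines. The srNMP level cancels in these differences, so they are the 4 ventral against dorsal calls given above and no further support. Fitted on the 4 neuron libraries alone, 0 members were called, and GABRA2 entered the test through the ventral group.

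Of 270 contrasts examined (1 gene in 1 comparison each), 3 had lines that moved in opposite directions by over 0.5 on the log2 scale in each line. Opposite movements below that cutoff, such as GRIN1 between ventral and dorsal neurons, are not listed. Each group had 1 library per line, and the difference between lines was not tested. The ventral minus dorsal difference of GRIK3 was 1.03 in HUES9 and -1.67 in H1. The dorsal minus RABC difference of GABRB2 was -0.55 in HUES9 and 0.61 in H1. The ventral minus RASS difference of GRIK3 was 1.84 in HUES9 and -1.33 in H1; with the RASS lines exchanged both directions turned, to -0.47 in HUES9 and 0.98 in H1.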

How the results depend on the processing

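Of 164 single-gene results, 137 called, the 14 fits that left out 1 library gave 2289 values, of which 2044 kept direction and side of the threshold, 212 lost the call, 32 gained it and 1 reversed; the 8 other settings gave 1268, of which 1153 kept both, 85 lost it, 29 gained it and 1 reversed. The reversals were GRIA1 in ventral neurons against RASS, at -0.041 (adjusted p = 0.973) without the H1 RASS library (3.36, adjusted p = 0.00817, without the HUES9 one), and GRIK3 in the inductions against srNMPs, at -0.39 (adjusted p = 0.863) without both RASS libraries. Leaving out 1 library, members called ranged over 17 to 31 (all genes 1536 to 6314) for dorsal neurons against srNMPs, 25 to 35 (3745 to 6966) for ventral neurons against srNMPs, 3 to 6 (137 to 398) for ventral against dorsal, 8 to 21 (347 to 3076) for dorsal against RABC, 17 to 27 (1160 to 3926) for ventral against RASS, 0 to 4 (45 to 2277) for inductions against srNMPs, 7 to 13 (5036 to 7494) for muscle against srNMPs and 9 to 11 (1504 to 2705) for srNMPs against ESCs. The lowest muscle count was without the day 50 library.

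With only the groups compared, members called fell to 0 for ventral against dorsal (14 at an unadjusted p under 0.05 in limma; 57 of all genes called), 16 for ventral against RASS, 0 for inductions (9 unadjusted; 168 of all genes), 7 for muscle (2307) and 6 for srNMPs against ESCs (514); these fits hold fewer samples. A pseudocount of 0.1 gave 2 members for ventral against dorsal. For the inductions, no filter gave 1 member (183 of all genes), leaving out both RASS libraries 0 members (25 of all genes), and exchanging the RASS lines 875 of all genes. Without the replicate block, members called were 29, 35, 5, 22, 27, 3, 12 and 11 in the order of the ranges above, and the inductions had 772 of all genes; this block changed no other count by over 1.5 times. The causes were not tested. Scaling moved the background: the share of called genes that were higher was 54.5% for dorsal against srNMPs, 73.6% with equal summed FPKM and 45.7% after quantile normalization, and 57.5%, 72.2% and 45.3% for ventral. It was 71.9% and, after quantile normalization, 56.6% for ventral against dorsal, 61.1%, 74.7% and 48.9% against RABC, 58.0% and, after quantile normalization, 46.4% against RASS, 50.6% and, with equal summed FPKM, 62.0% for inductions, and 36.5% and, with equal summed FPKM, 49.4% for muscle. Equal summed FPKM put the median change of all genes at 0.25 for dorsal and 0.31 for ventral neurons against srNMPs and at -0.01, against -0.22, for muscle. Depth is known only relatively, so values near 0 carry no interval.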
